A study of Mus musculus with 24 samples.

Results

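The complement and coagulation genes are 45 genes for plasma proteins of innate defence and blood clotting, and for the vessel-wall proteins that check clotting. They were chosen by gene symbol from a table of 27179 genes, and all 45 were found in it. By the cell type that mainly makes the protein, 36 are hepatocyte genes, 5 are endothelial (Vwf, Tfpi, Thbd, Procr and F8) and 4 have another or mixed source (F3, F13a1, Cfd and Pros1). The data are H3K4m3-Seq, in which chromatin carrying trimethylated lysine 4 of histone H3 is pulled down with an antibody and sequenced. This mark lies at the start of active genes. The samples were FFPE (formalin-fixed, paraffin-embedded) and flash frozen mouse liver, heart, kidney and brain. The labels give no strain, age, sex, genotype or number of mice, and name no treatment of the mice.

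The labels list 24 samples, of which 12 are H3K4m3 (8 FFPE and 4 frozen) and 12 are input. The table held 8 columns, 1 for each organ and preservation type, which name no antibody and no replicate and were taken as H3K4m3 from the titles of table and series. The sources used here do not give whether each FFPE column stands for 1 FFPE sample of the organ or for the reads of 2 together. A column is a library in what follows, so an organ has 2 libraries. Depth ran between 3388631 and 5275085 reads in the FFPE libraries and between 1792394 and 2976029 reads in the frozen ones. Organ labels were matched by the markers: 11 of 11 hepatocyte markers passed as higher in liver, 5 of 5 cardiomyocyte markers in heart, 6 of 6 kidney tubule markers in kidney and 5 of 5 neuron markers in brain, each against other organs. No marker was at 0 in any library.

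Complement is a cascade of plasma proteases. The classical pathway starts on antibody and the lectin pathway on microbial sugars, both converge with the alternative pathway on cleavage of C3, and the terminal components then form a pore in the target membrane. Coagulation is a second protease cascade that ends in thrombin, which turns fibrinogen into fibrin. The liver secretes most of these proteins, while endothelial cells carry proteins that restrain thrombin and tether platelets.

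Levels below are CPM, the deposited log2 values taken off the log scale, that is, reads plus 0.5 scaled by the size of the library. They are not divided by gene length, so they compare libraries for a gene and not genes with each other. The lowest read number of any member in any library was 4, so no member was at 0. Differences are on the log2 scale with the standard error (SE) of a limma model of organ and preservation over the 8 libraries. A gene passed when its adjusted p, over the 25680 genes tested, was under 0.05. All 45 members were among the genes tested.

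In liver against the mean of heart, kidney and brain, 32 members were higher and 1 was lower, so 33 of 45 passed. Among all tested genes 9.96% passed, 5.13% as higher and 4.84% as lower. The 32 higher members were all hepatocyte genes, 32 of 36. None of the 5 endothelial members and none of the 4 of other or mixed source passed as higher. The median difference was 2.19 for the hepatocyte members, -0.02 for the endothelial members and 0.20 for the others, beside -0.01 for all tested genes. In 33 of the 36 hepatocyte members both liver libraries lay above all 6 libraries of the other organs, which 5.12% of tested genes showed. No member had both liver libraries below all 6, beside 4.44% of tested genes. In tissue pieces, more cells of a type and more of the mark per cell cannot be told apart.

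**Figure D1:**
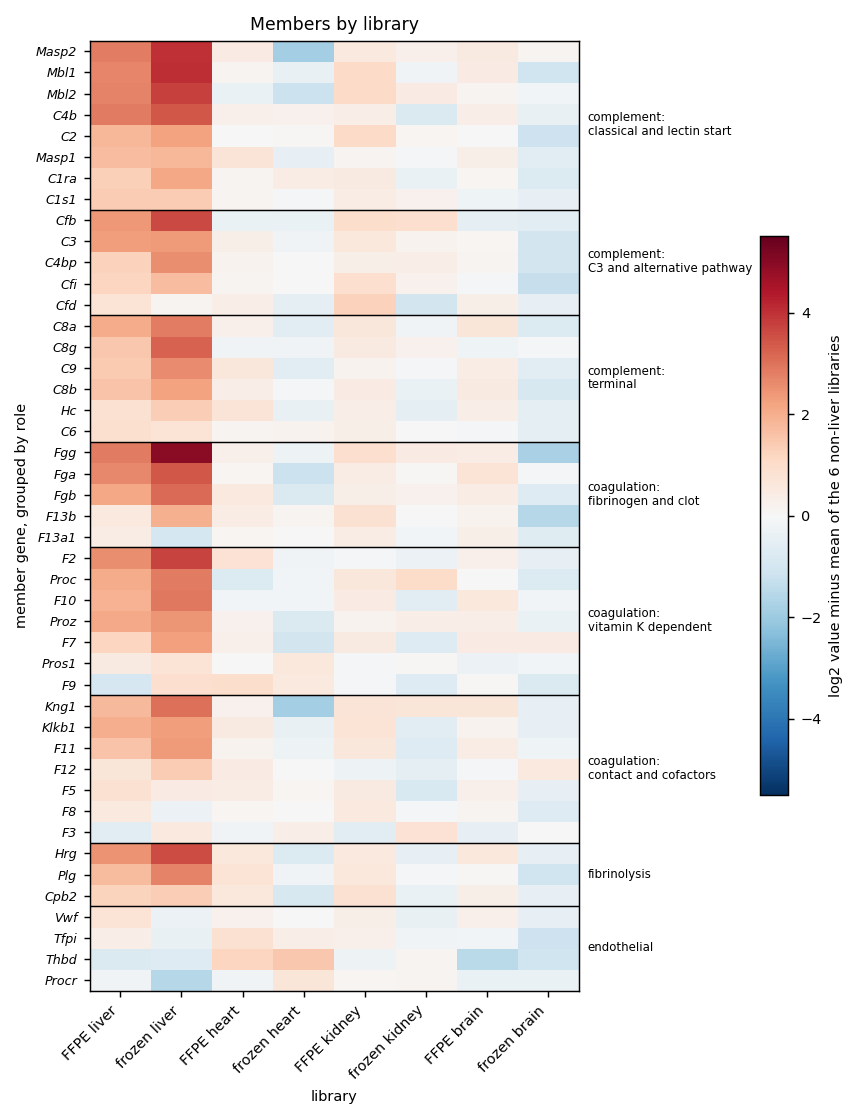
Heat map of the log2 value of each of the 45 members (rows, grouped by role) in the 8 libraries (columns), minus the member's mean over the 6 non-liver libraries. The 2 liver columns are red for nearly all complement and clotting factors, and the endothelial rows at the bottom are not.

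**Figure D2:**
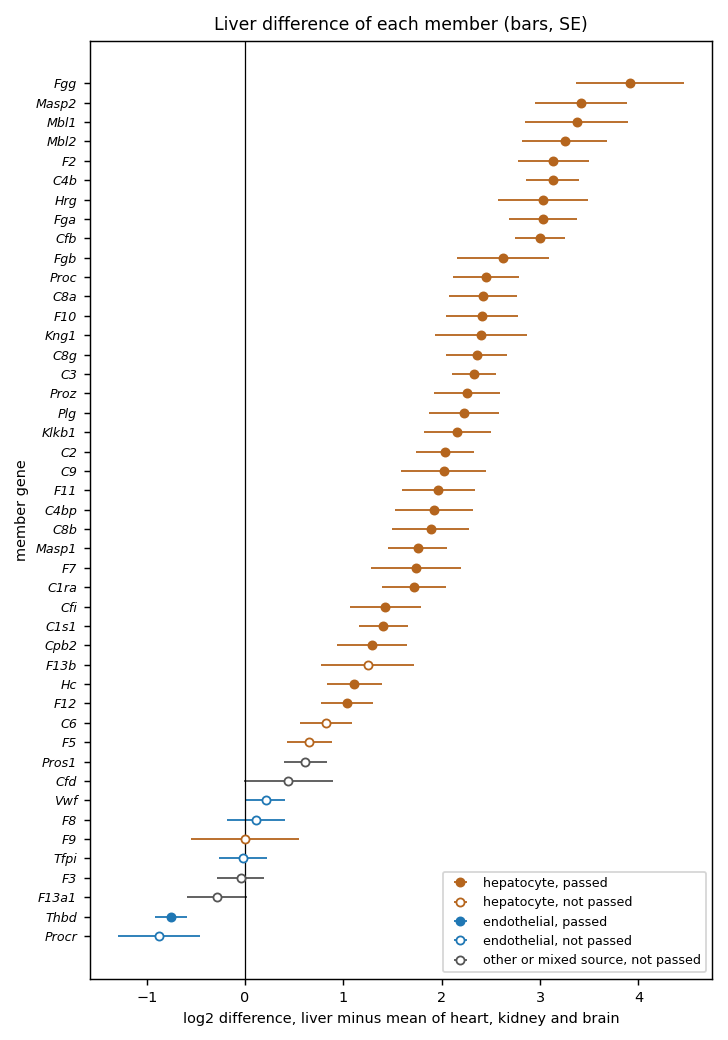
Difference between liver and the mean of heart, kidney and brain for each member (log2, point), with its SE (bar), in order of size. Filled points passed an adjusted p of 0.05: 32 hepatocyte members to the right of 0, and Thbd to the left.

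The 8 genes of the classical and lectin pathways passed as higher in liver, 8 of 8, with a median difference of 2.58. C4b, the component of the C3 convertase laid down by both pathways (chr17:34728139-34743902 in RefSeq's GRCm38.p6, gene ID 12268), had 208 CPM in FFPE liver and 302 CPM in frozen liver, against a lowest of 16.5, a median of 34.2 and a highest of 36.8 CPM in the other 6 libraries. Both liver libraries thus stood far above the rest, a difference of 3.13 ± 0.27 or 8.74-fold (limma, adjusted p = 5.59e-05). Masp2, the protease that cleaves C4 in the lectin pathway, had 80.6 CPM in FFPE liver and 187 CPM in frozen liver, against 3.10 to 16.7 CPM elsewhere with a median of 14.8. Frozen heart was the lowest of these. The mannose-binding lectins that recognise the sugars, Mbl1 and Mbl2, differed by 3.37 ± 0.52 and 3.25 ± 0.43. Differences were smaller for C2 (2.03), which is cleaved to give the protease of that convertase, for Masp1 (1.75), the lectin-pathway protease that activates Masp2, and for the C1 proteases C1ra (1.72) and C1s1 (1.40). C4b, C1ra, C1s1 and, among the contact factors below, Kng1 each have a near-identical copy in the mouse (C4a, C1rb, C1s2 and Kng2), and the treatment of reads that match both copies is not given in the labels.

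Of the 5 genes around C3 and the alternative pathway, 4 passed as higher in liver. C3 itself, on which the 3 pathways meet (chr17:57203967-57228136, gene ID 12266), had 168 CPM in FFPE liver and 172 CPM in frozen liver, against 16.8 to 49.8 CPM in the other libraries with a median of 37.3. The liver libraries were nearly equal and the frozen brain library was the lowest, and the difference was 2.33 ± 0.22 or 5.03-fold (limma, adjusted p = 0.000113). Cfb, the protease of the alternative C3 convertase (chr17:34856374-34862514, gene ID 14962), had 149 CPM in FFPE liver and 354 CPM in frozen liver, against 18.9 to 55.7 CPM elsewhere with a median of 22.4. Its difference was 3.00 ± 0.25 (limma, adjusted p = 5.59e-05). The inhibitors C4bp (1.92), which binds C4b, and Cfi (1.43), which degrades C3b and C4b, also passed. Cfd, the protease that activates factor B and is made largely by adipocytes, did not, at 13.0 CPM in FFPE liver and 8.44 CPM in frozen liver against 3.83 to 18.7 CPM elsewhere. The ranges of liver and the other organs overlapped for Cfd.

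The terminal components gave 5 of 6 as higher, with a median of 1.95. C8a, C8b and C8g, the chains of C8, differed by 2.42, 1.89 and 2.35, and C9, which forms the pore, by 2.02. Hc, the gene of C5, differed by 1.11 ± 0.28, with 58.0 CPM in FFPE liver and 82.2 CPM in frozen liver against 22.2 to 52.8 CPM elsewhere. C6 did not pass at 0.82 ± 0.27 (limma, adjusted p = 0.0689), although its 34.4 CPM in FFPE liver and 31.2 CPM in frozen liver lay above the 12.7 to 23.3 CPM of the other libraries.

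The 3 fibrinogen chain genes are neighbours on chromosome 3, with gaps of 11.1 kb between Fgg and Fga and 8.62 kb between Fga and Fgb, and all of them were higher in liver. Fgg (chr3:83007724-83015056, gene ID 99571) had 66.9 CPM in FFPE liver and 288 CPM in frozen liver, against 2.70 to 17.4 CPM elsewhere with a median of 11.6. Its difference of 3.92 ± 0.55, 15.1-fold, was the largest point estimate among the members (limma, adjusted p = 0.000698). Fga had 84.4 CPM in FFPE liver and 145 CPM in frozen liver, against 5.93 to 22.7 CPM elsewhere with a median of 14.4, a difference of 3.03 ± 0.35. For Fgb the difference was 2.62 ± 0.47. The factor XIII subunits, which cross-link fibrin, did not pass. F13b, the carrier subunit made by hepatocytes, differed by 1.25 ± 0.47 (limma, adjusted p = 0.124), above the estimate of 1.11 for Hc, which passed. F13a1, the enzyme subunit made by blood-forming cells, differed by -0.29 ± 0.31.

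Among the 7 vitamin K dependent genes, 5 passed as higher. F2, the gene of prothrombin (chr2:91612397-91636457, gene ID 14061), had 74.8 CPM in FFPE liver and 165 CPM in frozen liver, against 9.35 to 21.9 CPM elsewhere with a median of 11.4, a difference of 3.13 ± 0.36. The anticoagulant protease gene Proc differed by 2.45, F10, whose product activates prothrombin, by 2.41, Proz, whose product is a cofactor in inhibiting factor Xa, by 2.26, and F7, whose product starts clotting together with tissue factor, by 1.73. Pros1, the cofactor of activated protein C made by hepatocytes and endothelium, had 43.1 CPM in FFPE liver and 50.8 CPM in frozen liver against 24.2 to 46.0 CPM elsewhere, and did not pass (0.61 ± 0.22). F9, the factor lacking in haemophilia B, was the hepatocyte gene whose difference was nearest to 0: its 3.62 CPM in FFPE liver (15 reads) was the lowest of the 8 libraries, its 13.1 CPM in frozen liver (33 reads) was close to the highest of the others, 13.6 CPM in FFPE heart, and the model gave -0.00 ± 0.55 (limma, adjusted p = 0.999).

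Of the contact factors, which start clotting on negatively charged surfaces, 4 passed: Kng1 for kininogen (2.40), Klkb1 for plasma kallikrein (2.16) and the proteases F11 (1.97) and F12 (1.04). The cofactors did not: F5 differed by 0.65 ± 0.23 (limma, adjusted p = 0.0979), F8, made in sinusoidal and other endothelium, by 0.11 ± 0.30, and F3, the tissue factor of cells outside the vessel, by -0.05 ± 0.24. The 3 genes of fibrinolysis passed, with Hrg, a plasminogen-binding protein, at 3.03, Plg, the zymogen of the fibrin-cleaving protease plasmin, at 2.23 and Cpb2, whose product protects fibrin from plasmin, at 1.29.

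Several members lie side by side and both passed as higher in liver: F7, F10 and Proz with gaps of 1.5 and 3.91 kb, C2 and Cfb with 0.087 kb, F11 and Klkb1 with 4.63 kb, C1ra and C1s1 with 6.90 kb, and C8b and C8a with 11.1 kb. Their difference in log2 difference ran between 0.15 for F10 and Proz and 0.97 for Cfb and C2. The labels do not give where along a gene the reads were counted. Reads of neighbours this close, and of C8a, C8g, Masp1, Masp2, F2, F5, F8 and Proz, which overlap another gene of the table, could have been split between genes.

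The calls depended on single libraries to different degrees. With 1 library left out, its organ keeps 1 library, which the model fits exactly. The SE of such a refit holds no spread within that organ, so a call that holds does not show that the organ's libraries are alike. With 1 library left out at a time, 12 members passed every time: Fgg, Masp2, Mbl2, F2, C4b, Fga, Cfb, Proc, C8a, C8g, C3 and C2. The count was lowest, 12, without the frozen liver library, and lay between 28 and 35 without any of the others. Where the variance was not allowed to depend on the level, 0 of the 25680 genes passed.

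The sequence before the start of each gene was read to see how the promoters of the members compare. Promoter sequences were read from RefSeq (GRCm38.p6) as windows of 250 bases before and 50 after the start, and 35 of the 45 members had one. The sequences below are the hepatocyte members C3, Fga and F2, which had the largest test statistics in liver among those with a promoter, the hepatocyte member F9, whose liver difference was nearest to 0, and the endothelial member Procr. Only bases outside the annotated gene are shown, 5′ to 3′ on the gene's strand, with each CpG dinucleotide in capitals. They are from chr17:57228137-57228386 (minus strand) for C3, chr3:83025903-83026152 (plus) for Fga, chr2:91636458-91636707 (minus) for F2, chrX:59999214-59999328 (plus) for F9 and chr2:155750967-155751124 (plus) for Procr. The F9 sequence ends 135 bases and the Procr sequence 92 bases before the listed start.
C3: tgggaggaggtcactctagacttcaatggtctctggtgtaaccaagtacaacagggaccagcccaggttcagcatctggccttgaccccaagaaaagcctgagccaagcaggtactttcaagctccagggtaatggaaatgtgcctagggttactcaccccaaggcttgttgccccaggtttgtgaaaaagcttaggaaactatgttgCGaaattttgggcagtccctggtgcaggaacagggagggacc
Fga: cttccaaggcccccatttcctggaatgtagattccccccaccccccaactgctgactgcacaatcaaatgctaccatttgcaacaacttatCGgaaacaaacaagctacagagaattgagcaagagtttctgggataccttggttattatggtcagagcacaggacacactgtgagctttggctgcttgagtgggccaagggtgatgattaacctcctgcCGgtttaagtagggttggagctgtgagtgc
F2: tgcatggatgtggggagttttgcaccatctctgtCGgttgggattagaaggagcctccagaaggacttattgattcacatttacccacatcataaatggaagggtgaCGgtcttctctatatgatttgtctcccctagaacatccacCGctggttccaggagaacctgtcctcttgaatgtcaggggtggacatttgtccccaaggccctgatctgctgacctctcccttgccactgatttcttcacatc
F9: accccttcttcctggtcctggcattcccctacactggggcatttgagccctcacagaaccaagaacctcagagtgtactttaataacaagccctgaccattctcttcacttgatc
Procr: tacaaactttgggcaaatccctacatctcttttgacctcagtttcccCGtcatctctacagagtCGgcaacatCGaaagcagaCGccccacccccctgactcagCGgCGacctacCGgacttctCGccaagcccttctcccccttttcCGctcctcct
These stretches hold 1 CpG in C3, 2 in Fga, 3 in F2, 0 in F9 and 9 in Procr.

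Over the whole windows, the 28 hepatocyte members with a promoter had a median of 4.5 CpG, between 1 and 8, beside a median of 7 over 27025 promoters. None of the 28 had a CpG content over 0.6 of that expected from its bases, which 36.4% of all promoters had. Among the members of other or mixed source, F3 with 32 CpG (0.893 of expected) and Pros1 with 21 (0.645) were over it, and among the 3 endothelial members with a promoter none was. The letters GTTAAT on either strand, the half-site of the liver factor HNF1, occurred in 10 of the 28 hepatocyte windows, or 35.7%, and in 7.20% of all promoters. The Fga sequence above holds it as its reverse complement, 43 bases before the start, and in F2 it lies outside the stretch shown. The HNF4 core AAAGTCC was in 2 of the 28 hepatocyte windows, or 7.14%, and in 4.25% of all, the FOXA letters TGTTTAC in 7.14% and 3.55%, and TATAAA in 14.3% and 14.2%. With only the 250 bases before the start, the shares were 3.57% of hepatocyte members and 3.65% of all for HNF4, 7.14% and 13.0% for TATAAA, and 32.1% and 6.52% for HNF1. A match of letters is a description and not evidence of a bound factor.

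Among the 5 endothelial members the organ with the highest mean was heart for 3 (Thbd, Tfpi and Procr), liver for Vwf and kidney for F8. Thbd, the thrombin receptor thrombomodulin that turns thrombin into an activator of protein C (chr2:148404471-148408188, gene ID 21824), had 243 CPM in FFPE heart and 296 CPM in frozen heart. It had 88.5 CPM in FFPE kidney and 118 CPM in frozen kidney, 60.3 CPM in FFPE liver and 65.7 CPM in frozen liver, and 38.4 CPM in FFPE brain and 49.7 CPM in frozen brain. The organs therefore ranked heart, kidney, liver, brain, with no overlap between neighbours in that order. Heart against brain and kidney gave 2.01 ± 0.17 or 4.02-fold (limma, adjusted p = 0.0002), the only member of 45 to pass as higher, beside 1.45% of tested genes. No member passed as lower in that comparison, beside 0.771%. In heart against liver, Thbd was the 1 member that passed as higher, at 2.09 ± 0.20 or 4.26-fold (limma, adjusted p = 0.000169), beside 3.29% of tested genes. The 28 that passed as lower there were all hepatocyte genes, beside 3.47%. Both calls of Thbd held with each of the 8 libraries left out in turn, though the SE then held no spread within the organ of that library. Its lower value in liver against the other organs together, -0.75 ± 0.16 (limma, adjusted p = 0.00891), was not a minimum over the organs, since brain was lower still, and did not pass without the frozen liver library.

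Procr, the endothelial receptor of protein C, had 12.4 CPM in FFPE heart and 22.9 CPM in frozen heart, 12.5 CPM in FFPE liver and 4.90 CPM in frozen liver, 15.5 and 16.0 CPM in FFPE and frozen kidney, and 11.3 and 11.0 CPM in FFPE and frozen brain. Frozen liver was low and frozen heart high, while the 4 FFPE libraries were close together, and no organ comparison passed for Procr. Tfpi, the inhibitor of the tissue factor pathway, had 48.5 CPM in FFPE heart and 35.3 CPM in frozen heart, the highest organ in both preservation types, and 24.7 CPM in FFPE brain and 12.7 CPM in frozen brain, the lowest. Brain against heart and kidney passed for Tfpi at -0.95 ± 0.26 (limma, adjusted p = 0.0338) and for Thbd at -1.92 ± 0.17, as the 2 lower members, beside 3.7% of tested genes, and 0 members were higher, beside 4.23%. The Tfpi call passed in only 2 of the 8 refits that left out a library, those without a liver library. Vwf, the platelet-tethering factor, ran between 40.1 and 90.9 CPM over the 8 libraries and F8 between 10.6 and 25.8 CPM. The highest library of both was FFPE liver, and no organ comparison passed for either.

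**Figure D3:**
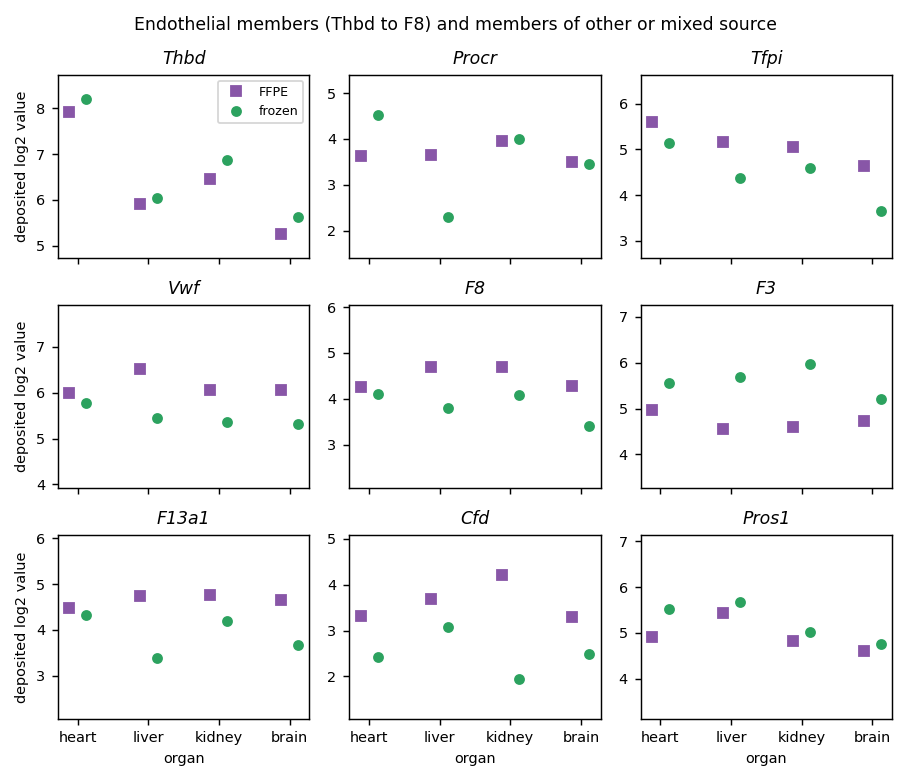
Deposited log2 value (y axis; each panel has its own range of levels) of the 5 endothelial members, Thbd to F8, and the 4 members of other or mixed source in heart, liver, kidney and brain, with FFPE (squares) left of frozen (circles). Heart is highest for Thbd in both preservation types, and FFPE is below frozen in all 4 organs for F3.

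Endothelial markers outside the set were measured beside these. Of 12 such genes, 7 passed as higher in heart against brain and kidney, beside 1.45% of tested genes, and 7 in heart against liver, beside 3.29%. Their summed level was 951 and 838 CPM in FFPE and frozen heart, 497 and 352 CPM in liver, 531 and 507 CPM in kidney, and 289 and 230 CPM in brain. Their part in the Thbd and Tfpi differences was not tested. Of 7 markers of liver sinusoidal endothelium, 4 passed as higher in liver, beside 5.13% of tested genes.

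Outside liver, kidney was the highest organ for 22 of the 36 hepatocyte members in FFPE libraries, beside 30% of tested genes, and for 21 in frozen libraries, beside 36.8%. Cfb was the 1 member that passed as higher in kidney against brain and heart, at 1.40 ± 0.27 or 2.64-fold (limma, adjusted p = 0.0126), beside 1.25% of tested genes. It had 55.7 CPM in FFPE kidney and 53.9 CPM in frozen kidney, against 22.5 and 22.3 CPM in FFPE and frozen heart and 19.6 and 18.9 CPM in brain. The kidney values did not overlap with the others, and the call held in 4 of the 8 refits that left out a library, failing without frozen brain, frozen heart or either kidney library. Proc differed by 1.23 ± 0.35 in kidney (limma, adjusted p = 0.095). No member passed as lower in kidney, beside 1.31% of tested genes.

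The liver difference had the same direction in FFPE and frozen libraries for most members and differed in size. In the hepatocyte members the median difference of liver from the mean of the other organs was 1.38 in FFPE and 2.78 in frozen libraries, and it was smaller in FFPE for 36 of 36, beside 52.2% of tested genes. It was above 0 in 35 of 36 in FFPE, with F9 at -1.26 as the exception, and in 36 of 36 in frozen libraries. The 5 endothelial members were all larger, or less negative, in FFPE, with medians of 0.06 in FFPE and -0.10 in frozen libraries. All tested genes had median liver differences of 0.0007 in FFPE and 0.03 in frozen libraries, so the 52.2% is not a share for genes high in liver. For 11 hepatocyte markers outside the set the liver medians were 1.29 in FFPE and 3.19 in frozen libraries, with 10 smaller in FFPE. Markers of the other organs, each in its own organ against the mean of the rest, also had smaller medians in FFPE. For 5 cardiomyocyte markers the median was 1.49 in FFPE and 3.43 in frozen libraries, and for 6 kidney tubule markers 1.57 and 3.24. For 5 neuron markers it was 2.20 and 2.54. Across the 36 hepatocyte members the FFPE and frozen differences had a Pearson r of 0.765 and a Spearman rho of 0.826. This is a description across genes measured in the same libraries.

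**Figure D4:**
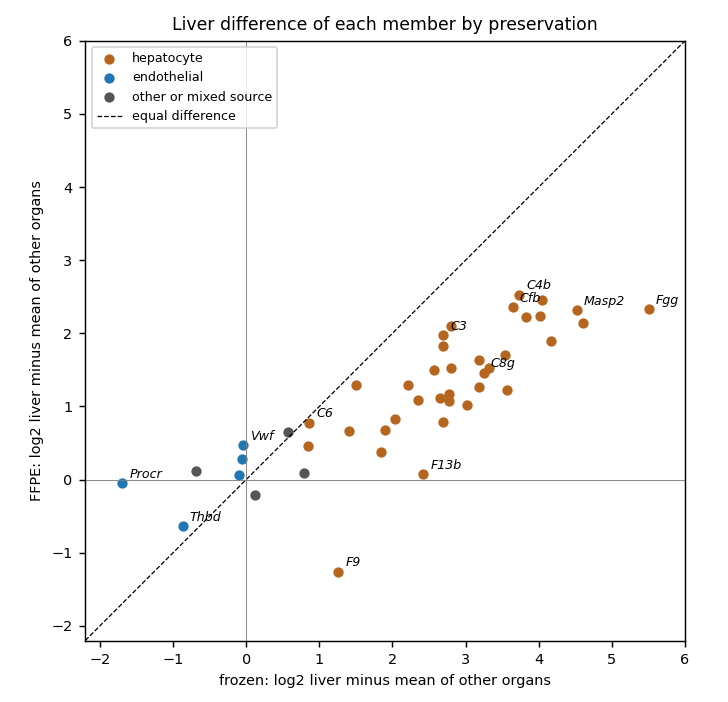
Difference between liver and the mean of the other organs for each member, in FFPE libraries (y axis, log2) against frozen libraries (x axis, log2), with the line of equal differences. The hepatocyte members lie below the line, 36 of 36, with F9 at -1.26 in FFPE and 1.25 in frozen libraries.

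Tested directly, the liver difference in FFPE minus that in frozen libraries passed for Fgg and C8g, 2 members lower beside 0.432% of tested genes, and for 0 members higher beside 0.611%. For Fgg it was -3.17 ± 0.65 (limma, adjusted p = 0.036): liver exceeded the other organs 5.03-fold in FFPE and 45.4-fold in frozen libraries. For C8g it was -1.78 ± 0.36 (limma, adjusted p = 0.0356), with 73.9 CPM in FFPE liver and 247 CPM in frozen liver, against 22.5 to 37.5 CPM in FFPE and 22.9 to 30.9 CPM in frozen libraries of the other organs. The gap between preservation types was thus in the liver libraries of C8g, while for Fgg frozen brain was also low, at 2.70 CPM beside 12.0 CPM in FFPE brain. The SE of this comparison holds no spread between liver libraries, because each preservation type had only 1 liver library. Over the hepatocyte members the median FFPE minus frozen liver difference was -1.57, beside -0.04 for all tested genes. The 11 hepatocyte markers outside the set had a median of -1.97, with 10 negative. For 8 coagulation inhibitors of the serpin and macroglobulin kind it was -2.03, with 6 negative. The smaller liver difference in FFPE was thus not particular to Fgg, C8g or the members. The members' median was -0.70 once all libraries were given the same distribution of values. With that scaling, or with no filter on low values, 0 members passed. The hepatocyte markers outside the set had a summed level of 847 CPM in FFPE liver and 2323 CPM in frozen liver, against 183 to 325 CPM in the other 6 libraries. The part of this in the members' differences was not tested. FFPE and frozen tissue were turned into chromatin by different procedures, and the labels do not say which of 2 library kit families was used for which sample, so preservation, preparation and kit cannot be told apart.

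Averaged over the 4 organs, FFPE against frozen passed for 6 members as higher, beside 16.5% of tested genes, and for 1 as lower, beside 21.3%. The 6 were Cfd (1.15), Cpb2 (0.83), F13a1 (0.77), Vwf (0.68), F5 (0.68) and Tfpi (0.67). Vwf had 63.9, 90.9, 67.0 and 66.3 CPM in FFPE heart, liver, kidney and brain, against 54.5, 43.4, 41.3 and 40.1 CPM in the frozen libraries. All 4 FFPE values were above all 4 frozen ones, and this call held with each library left out. F3 had 31.4, 23.5, 24.1 and 26.6 CPM in FFPE heart, liver, kidney and brain, against 47.1, 52.0, 62.9 and 36.8 CPM in the frozen libraries. FFPE was lower in each of the 4 organs without overlap, by -0.90 ± 0.21 (limma, adjusted p = 0.00469), and of the 8 refits that left out a library only the one without frozen kidney lost the call. The hepatocyte members had a median of 0.37, beside 0.18 for all tested genes. With equal distributions of values these medians were 0.08 and 0.02, and with precision weights the hepatocyte median was -0.13 and the passing members were 5 higher and 4 lower. Without the FFPE or the frozen liver library the hepatocyte median was 0.77, beside 0.13 for all tested genes.

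F3 was also the member with the most CpG-rich promoter. Over the 35 members with a promoter, CpG content relative to expectation and the FFPE difference had a Pearson r of -0.596 and a Spearman rho of -0.295, and without F3 and Pros1 r was -0.245. Over 18321 tested genes with a promoter r was -0.534 and rho -0.553. In that set the median FFPE difference was -0.34 for promoters over 0.6 and 0.56 for the others, so F3 and Pros1 (-0.31 ± 0.19) lay on the side of CpG-rich genes in general. These are descriptions across genes that share the 8 libraries. Gene span, the length of the annotated gene, went with the liver difference in the 36 hepatocyte members with an r of -0.518 and a rho of -0.519: Fgg, with 7.33 kb, had the largest difference, and Hc (85.2 kb), C6 (77 kb) and F5 (68.4 kb) had differences of 1.11 or less.

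**Figure D5:**
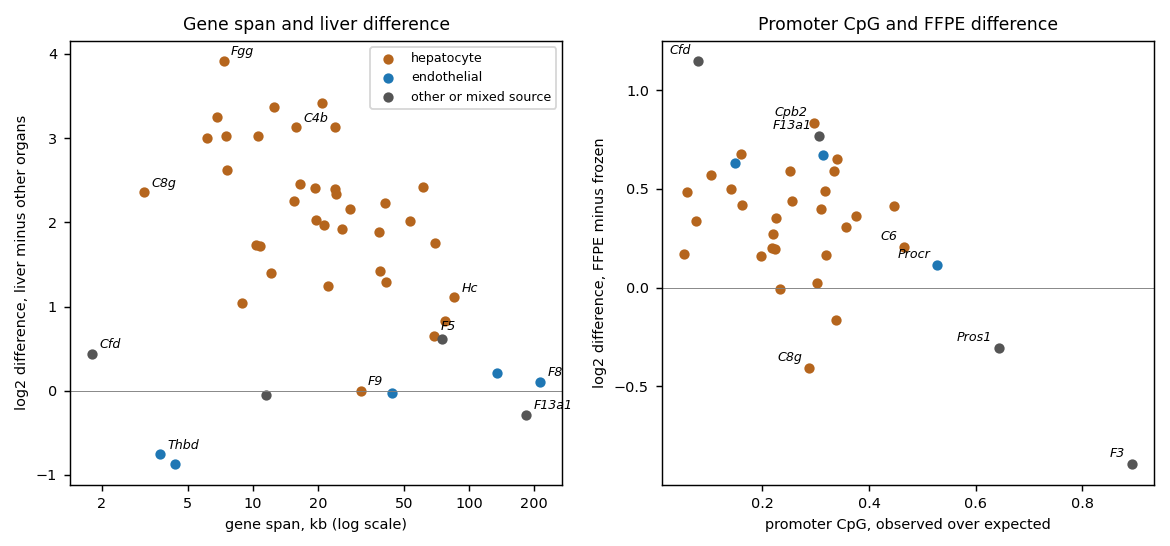
Left, difference between liver and other organs (log2) against gene span (kb, log scale) for the 45 members. Right, difference between FFPE and frozen (log2) against promoter CpG content, observed over expected, for the 35 members with a promoter, with F3 at the lower right at 0.893 and -0.90.

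Other genes of the pathways, taken from fixed lists, were counted in the same way. Of 8 coagulation inhibitors of the serpin and macroglobulin kind, 6 passed as higher in liver, beside 5.13% of tested genes. Among them were Serpinc1 for antithrombin at 3.27 ± 0.42 or 9.64-fold, Serpinf2 for the plasmin inhibitor at 2.83 and Serpind1 for heparin cofactor II at 2.79. Of 14 other soluble complement factors and regulators, 5 passed as higher, among them Vtn for vitronectin at 3.57 ± 0.34 or 11.9-fold, C1rl at 1.86, Serping1 for the C1 inhibitor at 1.68 and Clu for clusterin at 1.44. Of 12 complement receptors and cell regulators, 0 passed in either direction in liver, and 8 passed as higher, beside 16.5% of tested genes, and 1 as lower, beside 21.3%, in FFPE against frozen. Of 10 macrophage and microglia markers, 4 passed as higher in FFPE, beside 16.5% of tested genes, and 0 as lower, beside 21.3%. The median of these markers was 0.58, and none was at 0. Their summed level was 199 to 273 CPM in FFPE libraries and 123 to 178 CPM in frozen libraries, and their part in the receptor differences was not tested. The higher receptors with a promoter had a CpG content between 0.140 (C5ar1) and 0.581 (Cr2) of expected, and Cr1l, the lower gene, had 0.469. Over all tested genes with a promoter not over 0.6, the median FFPE difference was 0.56. The part of promoter CpG in the receptor differences was not tested either. The receptors' highest FFPE difference was 1.45 ± 0.25 for Itgax, an integrin chain that binds complement fragments on myeloid cells. Of 7 plasminogen activators and receptors, Plau for urokinase passed as lower in liver, at -1.40 ± 0.29, and 0 as higher. Plau was high in kidney: kidney against brain and heart gave 2.69 ± 0.30. Of 5 genes of the vitamin K cycle and of factor secretion, which act inside the cell, 3 passed as higher in liver: Vkorc1 at 1.35 ± 0.22, Lman1 at 0.86 and Ggcx, the enzyme that carboxylates the vitamin K dependent factors, at 0.71. All 5 of these passed as lower in FFPE against frozen, beside 21.3% of tested genes. Their promoter CpG content was 0.775 of expected for Ggcx, 0.772 for Mcfd2, 1.01 for Vkorc1l1 and 0.546 for Vkorc1. Of all tested genes with a promoter over 0.6, 71.3% had a negative FFPE difference. The part of promoter CpG in these 5 differences was not tested.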

How the data were processed

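H3K4m3-Seq values were analysed for 8 libraries, 1 per organ and preservation type. The authors deposited a table of log2 values by gene. The tools were Bowtie2, featureCounts and limma on build mm10, per the submitters' processing notes, which give no versions. Each deposited log2 value corresponded to reads plus 0.5 over a scaled library size, and whole reads were recovered to within 0.001 for 100% of values. Per the labels' protocols, frozen tissue was crosslinked after coring and FFPE tissue was deparaffinised and heat-extracted, both before shearing.

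From these values, genes with a mean log2 of at least 0 (25680 of 27179) were fitted with limma 3.58.1 in R 4.3.3 on organ and preservation, with an intensity trend and 3 residual degrees of freedom. A refit without 1 library fits the other library of that organ exactly, so its SE holds no spread within that organ. A second model added liver by preservation. It fits the liver libraries exactly, so its SE and p-values rest on the spread among the libraries of heart, kidney and brain. P-values were adjusted by Benjamini-Hochberg across the genes tested. Fold changes are on the scale of the log2 values, whose added 0.5 reads makes those of low genes too small. Nothing in the labels says which libraries came from different mice. P-values measure only the spread among the 8 libraries, or in the second model among those of heart, kidney and brain, possibly a technical one. Every member could be named. Pathway genes were named where they passed, though not every one is reported here, and markers by list. The members, gene lists and tests were chosen with earlier results of these data known. Alternatives were quantile normalization, other filters (none, or a mean log2 of at least 2), a pseudocount of 1, no trend, leaving out each library, 250 bases of promoter only, and, chosen after seeing the data, precision weights. A count of 0 would allow 3 reads, or 0.537 to 1.69 CPM by library, counting error only. Of the gene IDs, 25275 matched RefSeq, from which coordinates come, and 1275 genes had no symbol. Input samples were not analysed here.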

Additional observations from a re-analysis of the deposited data

Results flagged for a closer look

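The liver difference of Fgg and of C8g differed between FFPE and frozen libraries in a direct test of that difference, which gave 0 members with quantile normalization. For Fgg, the gamma chain of fibrinogen, liver over the other organs was 5.03-fold in FFPE and 45.4-fold in frozen libraries, a log2 difference of -3.17 that was negative in each of the 6 refits that left out a library of another organ and passed in all 6. For C8g, the gamma chain of complement C8, it was 2.76-fold in FFPE and 9.48-fold in frozen libraries, a log2 difference of -1.78 that passed in 4 of 6 refits and not without either kidney library. C8g overlaps Fbxw5 in the annotation, so its reads may be shared with that gene. The 45.4-fold of Fgg rests in part on frozen brain, its lowest library at 2.70 CPM. The direction was not particular to Fgg and C8g. The median of the same log2 difference was -1.57 over the 36 hepatocyte members and -1.97 over 11 hepatocyte markers outside the set.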

How the results depend on the processing

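No paired analysis was possible because the columns carry no replicate numbers. Without an intensity trend 0 members passed in liver, heart against brain and kidney, kidney, brain, heart against liver and the preservation dependence of liver, and 2 passed in FFPE against frozen. The prior degrees of freedom then were 2.58, against 11.1 with the trend. With quantile normalization 2 members passed in heart against brain and kidney, 2 in kidney and 0 in the preservation dependence. No filter also gave 0 for the preservation dependence. Precision weights gave 1 member in brain and 12 in the preservation dependence. With 1 library left out, the counts ran between 12 and 35 in liver, 1 and 3 in heart against brain and kidney, 0 and 2 in kidney, 1 and 6 in brain, 8 and 35 in heart against liver (8 without frozen heart and 12 without frozen liver), 1 and 22 in FFPE against frozen, and 2 and 10 in the preservation dependence (10 without either heart library). That last model could not be fitted without a liver library. Liver differences near 0 changed sign: F9 at 0.0318 with quantile normalization and 0.0165 with a pseudocount of 1, and Tfpi at 0.0731 with quantile normalization and 0.0127 with precision weights. With 1 library left out, F9 ran between -1.26 and 1.25, F13a1 between -0.68 and 0.11, F3 between -0.21 and 0.12, F8 between -0.0639 and 0.28, Tfpi between -0.10 and 0.0567, and Vwf between -0.0486 and 0.47. With 250 bases of promoter, the hepatocyte share was 7.14% for TATAAA and 3.57% for the HNF4 core, and the shares of all promoters were 13.0% for TATAAA, 6.52% for the HNF1 half-site, 3.65% for the HNF4 core and 3.09% for FOXA. The causes were not tested. The 2 libraries per organ limit the precision of each difference.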
